A study of Mus musculus with 10 samples.

Results

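The genes described here are 4 tissue inhibitors of metalloproteinases (Timp1, Timp2, Timp3 and Timp4) and 6 matrix metalloproteinases (Mmp2, Mmp9, Mmp12, Mmp14, Mmp15 and Mmp19), 10 of 24063 gene symbols in the tables. Where a symbol had several transcripts, its transcript was chosen by the largest count summed over all 10 libraries. The 10 symbols were themselves picked with earlier results of the comparison of 1C-MIM with Control known, so their differences between the groups are a description and not independent evidence. RNA from quadriceps muscle was sequenced in 5 Control and 5 1C-MIM libraries. All animals were C57BL mice of the genotype WT, 17 to 20 months old. Control mice drank the facility's water and 1C-MIM mice drank it with the supplement, for 1 to 3 months; the sources used here do not say what the supplement contains. A tibialis anterior muscle was injured in these mice, whereas the quadriceps sampled was not. The titles number the libraries within a group, and the deposited names carry a separate animal number for each.

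Matrix metalloproteinases are zinc-dependent proteases that cut collagens, gelatin, elastin, laminins and cell-surface proteins, and most are made as inactive precursors. TIMPs bind their active sites and block them. In muscle both are made largely by connective tissue cells, vessel cells and macrophages, and they take part in the matrix turnover of regeneration and fibrosis.

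Libraries held 28521254 to 31771296 counts after 1 transcript was kept per symbol. Myofibre markers (Acta1, Ckm, Myh4, Myh1 and Tnnt3) summed to 144067 to 164642 CPM (counts per 1000000, scaled by TMM factors) in Control and 156235 to 178295 CPM in 1C-MIM, so the labelled tissue was present. Control 1 stood apart in its 4 neuronal markers, which summed to 14.2 CPM there. Over all Control libraries their mean was 3.89 CPM and the lowest 1.02 CPM, and the 1C-MIM libraries were at 0.691 to 1.20 CPM. In whole muscle, fewer cells of a type and less RNA per cell cannot be told apart. All 10 genes passed the filter on low counts and were among the 13880 genes tested.

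In 1C-MIM muscle, the inhibitor Timp1 and 4 of the 6 metalloproteinases (Mmp12, Mmp2, Mmp19 and Mmp14) were lower, and Timp3 was higher. By edgeR's quasi-likelihood test with a Benjamini-Hochberg threshold of 0.05, 5 of the 10 genes were lower and 1 higher, where 11.8% of the tested genes were lower, 9.78% higher and 21.6% called in either direction. Timp1 and Mmp12, 2 of the 10, were called and at least 2-fold lower, as were 1.55% of the tested genes. The median log2 fold change was -0.36 for the 10 genes and 0.0009 for all tested genes. The groups did not overlap for 5 of the 10 (Timp1, Timp3, Mmp12, Mmp14 and Mmp19), against 14.6% of the tested genes. Because the genes were picked with this contrast known, nothing is read from these shares.

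**Figure D1:**
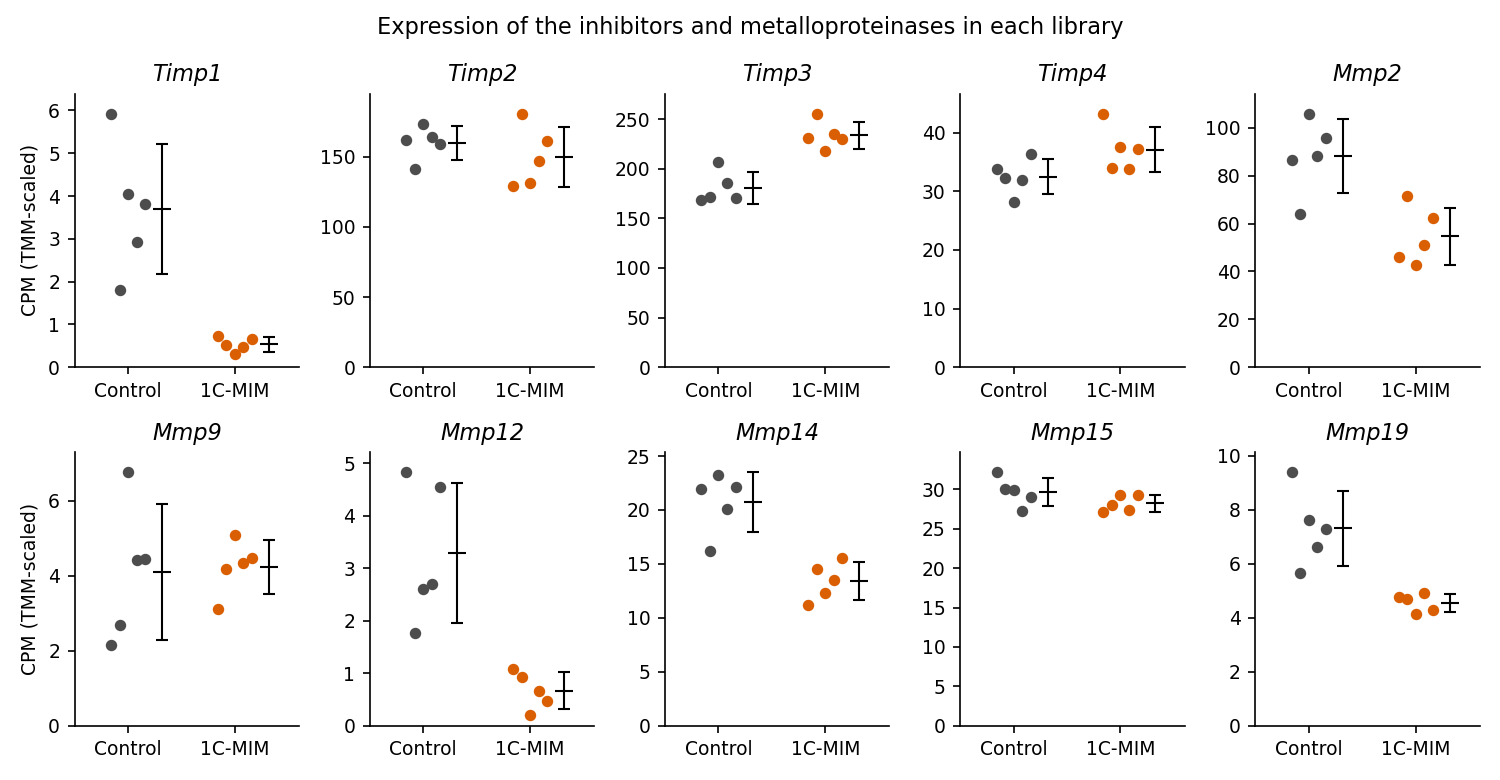
TMM-scaled CPM (vertical axes, from 0) of each gene in the 5 Control (grey) and 5 1C-MIM (orange) libraries, in the order of their numbers; each point is a library, and the bar beside the points is the mean ± SD. Timp1 lies between 1.79 and 5.92 CPM in Control and between 0.299 and 0.725 CPM in 1C-MIM, while the points of Timp2, Mmp9 and Mmp15 overlap.

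Timp1, a small secreted inhibitor whose gene responds to IL-6 family cytokines, TGF-beta and injury, showed the largest difference of the 10. Control 1 to 5 held 173, 55, 131, 91 and 113 reads, which is 5.92, 1.79, 4.05, 2.92 and 3.80 CPM. The 1C-MIM libraries 1 to 5 held 21, 15, 9, 14 and 20 reads, which is 0.725, 0.515, 0.299, 0.467 and 0.661 CPM. Every Control library was above every 1C-MIM library, and Control 2 was the lowest Control. The mean was 3.70 ± 1.53 CPM in Control and 0.534 ± 0.168 CPM in 1C-MIM (SD, n = 5 each). The log2 fold change was -2.78 (SE 0.32, edgeR adjusted p = 0.000226), a 6.88-fold lower level and the fifth lowest value among all tested genes.

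The 3 annotated Timp1 transcripts share nearly all their reads, with 642, 642 and 639 over all libraries, and so cannot be told apart. In GENCODE M21, Timp1 lies within Syn1, a synaptic vesicle gene on the other strand, without overlap of exons; the sources used here do not say whether the counting used strand. Syn1 held 6 to 40 reads per library, with the 40 in Control 1, the library that also held most Timp1 reads and most neuronal RNA. Without Control 1 the log2 fold change of Timp1 was -2.55 (SE 0.28, edgeR adjusted p = 0.000263), and without Control 1 and Control 5 together it was -2.45 (SE 0.29, edgeR adjusted p = 0.000499).

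The promoter window of Timp1 is shown because this gene differed most. It comes from RefSeq (build GRCm38.p6, chrX:20869916-20870215, plus strand) and runs from 250 bases before to 50 bases after the annotated start. Capitals mark matches on either strand to the letters searched, here a GC box (GGGCGG) and TGAGTAA, a variant of the AP-1 element that was added to the search after the window had been read.
Timp1: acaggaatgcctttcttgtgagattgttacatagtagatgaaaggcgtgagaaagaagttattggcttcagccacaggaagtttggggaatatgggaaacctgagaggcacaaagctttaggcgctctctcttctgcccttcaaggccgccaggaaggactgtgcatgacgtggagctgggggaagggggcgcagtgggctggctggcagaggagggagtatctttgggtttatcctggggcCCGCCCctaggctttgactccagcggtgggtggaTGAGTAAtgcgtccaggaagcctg
The TGAGTAA begins 26 bases after the start, and 2.68% of 32851 promoter windows of this length hold these letters. The GC box begins 8 bases before the start, and 35.7% of windows hold one. TGANTCA, the usual AP-1 element (7.81% of windows), TTCNNNGAA, a STAT element (8.30%), and TATAAA, the TATA box (13.6%), have no match in this window.

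Of 17 genes of transcription factors known to act on such promoters (the AP-1, Ets, Runx and NF-kappaB families, Stat3, Spi1 and Sp1), 7 were lower, 1 was higher and 9 did not pass (median log2 fold change -0.21). The AP-1 subunit genes Junb and Fos fell by 1.29 (SE 0.09) and 1.79 (SE 0.20) on the log2 scale, and Runx1 fell by 0.47 (SE 0.10). Another AP-1 subunit gene, Jun, was the higher member at 0.16 (SE 0.05, edgeR adjusted p = 0.0409). Of 16 genes of cytokines and receptors that induce Timp1 or metalloproteinases, 10 had enough reads for the test, of which 2 were lower and 8 did not pass (median 0.16). Tgfb1 fell by 0.56 (SE 0.10) and the TNF receptor gene Tnfrsf1a by 0.29 (SE 0.06), while the LIF receptor gene Lifr was at 0.25 (SE 0.09, edgeR adjusted p = 0.0620). Most of the cytokine genes had few reads over all 10 libraries, with 54 for Il6, 59 for Il1b, 33 for Tnf and 22 for Osm. The part of these factors and cytokines in the differences of Timp1 and the metalloproteinases was not tested.

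Timp3 binds to the matrix and also inhibits ADAM17 and aggrecan-cutting ADAMTS proteases. It was the 1 gene of the 10 called higher. Control 1 to 5 were at 169, 171, 207, 186 and 170.4 CPM, and 1C-MIM 1 to 5 at 231, 255, 218, 235 and 229.9 CPM. The lowest 1C-MIM library lay above Control 3, the highest Control. The log2 fold change was 0.37 (SE 0.07, edgeR adjusted p = 0.00311), a 1.29-fold higher level. With a trend of fold change over transcript length removed, it was 0.27 (SE 0.06, edgeR adjusted p = 0.00876). Under that correction 5 of the 10 genes were lower and 2 higher, against 9.31% and 6.95% of the tested genes. Timp3 lies within Syn3 on the other strand, with overlapping exons annotated, and Syn3 held 26 to 52 reads per library where Timp3 held 4934 to 7439.

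The Timp3 window is set beside that of Timp1 because these inhibitors differed in opposite directions. It is from RefSeq (GRCm38.p6, chr10:86300162-86300461, plus strand), with matches in capitals.
Timp3: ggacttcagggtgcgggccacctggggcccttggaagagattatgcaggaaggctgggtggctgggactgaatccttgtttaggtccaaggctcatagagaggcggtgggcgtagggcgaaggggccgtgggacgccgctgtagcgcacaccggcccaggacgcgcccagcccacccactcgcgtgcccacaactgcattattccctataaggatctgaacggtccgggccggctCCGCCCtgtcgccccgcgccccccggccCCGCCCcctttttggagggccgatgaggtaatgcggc
It holds 2 GC boxes, which begin 15 bases before and 13 bases after the start, and no match to the other letters searched.

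Timp2 blocks metalloproteinases and also links precursor Mmp2 to Mmp14 at the cell surface. Its libraries were at 162, 141, 173, 164 and 159 CPM in Control 1 to 5 and at 129, 181, 132, 147 and 162 CPM in 1C-MIM 1 to 5. The groups overlapped, with the highest and the lowest library both in 1C-MIM. Its log2 fold change was -0.09 (SE 0.09, edgeR adjusted p = 0.480), and 2 SE either side of it spans -0.27 to 0.09.

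Timp4 is an inhibitor abundant in heart. It was at 33.8, 32.3, 28.1, 31.9 and 36.4 CPM in Control 1 to 5 and at 43.2, 33.9, 37.5, 33.8 and 37.2 CPM in 1C-MIM 1 to 5. The groups overlapped, with 1C-MIM 2 and 1C-MIM 4 below Control 5 and 1C-MIM 1 the highest library. Its log2 fold change was 0.19 (SE 0.08, edgeR adjusted p = 0.106), and 2 SE either side spans 0.03 to 0.35. With the length trend removed Timp4 was called higher, at 0.33 (SE 0.06, edgeR adjusted p = 0.00236). It lies within Syn2 on the other strand, with overlapping exons annotated, and Syn2 held 38 to 76 reads per library. GENCODE M21 also places Timp4 within Gm17482. Timp2, Mmp12 and Mmp19 overlap Cep295nl, Mmp1b and Tmem198b without lying inside them, and overlap of exons was not examined for these.

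**Figure D2:**
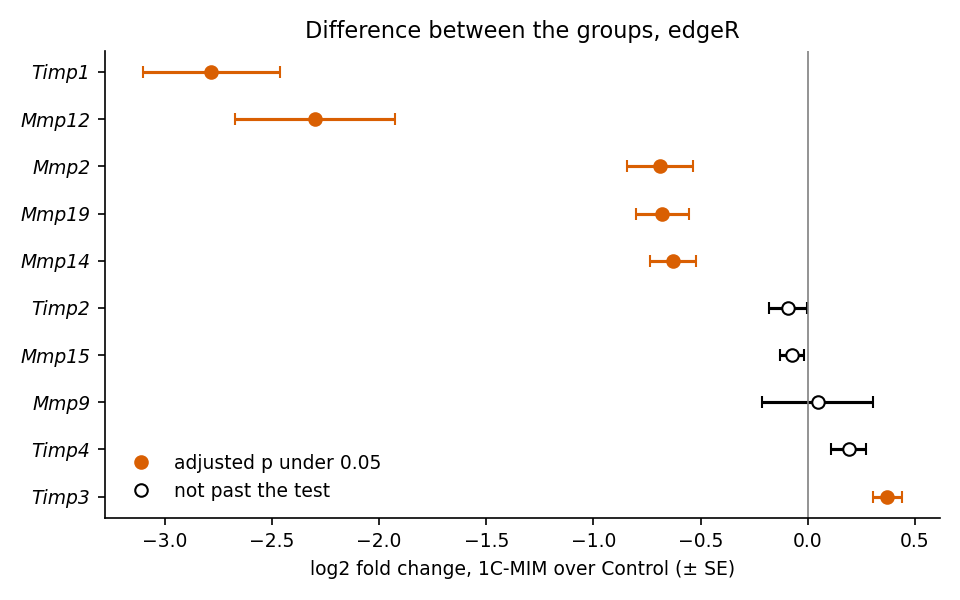
Log2 fold change of 1C-MIM over Control (horizontal axis) with its SE for each gene, from edgeR; filled orange points have an adjusted p under 0.05. Timp1 (-2.78) and Mmp12 (-2.30) lie far to the left, Mmp2, Mmp19 and Mmp14 lie between -0.69 and -0.63, and Timp3 lies at 0.37.

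Mmp12, the macrophage elastase, differed most among the metalloproteinases. Control 1 to 5 held 141, 54, 84, 84 and 135 reads, which is 4.83, 1.76, 2.59, 2.69 and 4.54 CPM. The 1C-MIM libraries 1 to 5 held 31, 27, 6, 20 and 14 reads, which is 1.07, 0.927, 0.199, 0.667 and 0.463 CPM. Control 1 and Control 5 were the highest libraries, and no 1C-MIM library reached Control 2, the lowest Control. The log2 fold change was -2.30 (SE 0.37, edgeR adjusted p = 0.00225), a 4.92-fold lower level. Without Control 1 and Control 5 together it was -1.82 (SE 0.33, edgeR adjusted p = 0.00642).

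The Mmp12 window is shown for the metalloproteinase that differed most. RefSeq lists 2 windows for Mmp12, and that of the downstream start is given (GRCm38.p6, chr9:7347124-7347423, plus strand).
Mmp12: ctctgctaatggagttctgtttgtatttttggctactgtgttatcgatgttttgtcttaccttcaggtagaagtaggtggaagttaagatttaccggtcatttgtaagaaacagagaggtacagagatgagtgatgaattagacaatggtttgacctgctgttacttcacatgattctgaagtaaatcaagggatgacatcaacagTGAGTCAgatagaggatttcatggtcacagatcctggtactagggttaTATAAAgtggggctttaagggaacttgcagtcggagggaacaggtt
Capitals mark the AP-1 element TGAGTCA, which begins 44 bases before the annotated start, and TATAAA, which begins 4 bases after it. The window of the other Mmp12 start holds no match to the letters searched. RefSeq windows were found for 7 of the 10 genes (not Mmp2, Mmp9 and Mmp19), and among them TGANTCA matched in Mmp12 alone. GC boxes matched in the windows of Timp1, Timp2, Timp3, Mmp14 and Mmp15.

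Most macrophage markers were also lower in 1C-MIM muscle. Of 8 macrophage genes (Emr1, Cd68, Csf1r, Cd163, Mrc1, Lyz2, Itgam and C1qa), 6 were lower and 2 did not pass (median -0.97), and every one had reads. Their summed level ranged from 205 to 399.7 CPM in Control and from 119.5 to 184 CPM in 1C-MIM. Cd68 fell by 1.34 (SE 0.14), Lyz2 by 1.33 (SE 0.15) and C1qa by 1.153 (SE 0.17), while Cd163, a marker of resident macrophages, was at 0.19 (SE 0.17, edgeR adjusted p = 0.442). The part of these cells in the values of Mmp12 and Timp1 was not tested.

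Mmp2, the gelatinase of connective tissue cells, had the highest level of the metalloproteinases. It stood at 86.4, 64.0, 106, 88.1 and 95.9 CPM in Control 1 to 5 and at 46.1, 71.6, 42.5, 50.9 and 62.2 CPM in 1C-MIM 1 to 5. The groups overlapped in 1 place, where 1C-MIM 2 lay above Control 2. The log2 fold change was -0.69 (SE 0.15, edgeR adjusted p = 0.0109), a 1.61-fold lower level. Its call was lost without Control 1 and Control 5 together, at -0.65 (SE 0.20, edgeR adjusted p = 0.0689), and with 1 surrogate variable, at -0.70 (SE 0.21, edgeR adjusted p = 0.0535). The call was also lost with the library number as a block, at -0.70 (SE 0.21, edgeR adjusted p = 0.0555).

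Mmp14, the membrane-bound collagenase that activates precursor Mmp2, was lower without overlap. Its libraries were at 21.98, 16.2, 23.2, 20.1 and 22.1 CPM in Control 1 to 5 and at 11.2, 14.6, 12.3, 13.5 and 15.5 CPM in 1C-MIM 1 to 5. Control 2 was again the lowest Control and lay just above 1C-MIM 5. Its log2 fold change was -0.63 (SE 0.11, edgeR adjusted p = 0.00241).

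Mmp19, a secreted protease that cuts basement membrane proteins, was at 9.38, 5.64, 7.60, 6.60 and 7.27 CPM in Control 1 to 5. In 1C-MIM 1 to 5 it was at 4.77, 4.71, 4.12, 4.90 and 4.30 CPM, a narrow range below every Control. Its log2 fold change was -0.68 (SE 0.13, edgeR adjusted p = 0.00331). Its 2 transcripts share nearly all their reads, with 1791 and 1783 over all libraries.

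Mmp15, a membrane-bound relative of Mmp14, had the smallest coefficient of variation of the 10 in both groups, 6.04% in Control and 3.75% in 1C-MIM. Its libraries were at 32.2, 30.1, 30.0, 27.2 and 29.1 CPM in Control 1 to 5 and at 27.1, 28.1, 29.3, 27.4 and 29.3 CPM in 1C-MIM 1 to 5, and the groups overlapped. The log2 fold change was -0.07 (SE 0.06, edgeR adjusted p = 0.378), and 2 SE either side spans -0.19 to 0.04.

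Mmp9, the gelatinase of neutrophils and macrophages, stood at 2.16, 2.67, 6.76, 4.42 and 4.44 CPM in Control 1 to 5. The 1C-MIM libraries 1 to 5 were at 3.11, 4.19, 5.08, 4.34 and 4.46 CPM, all inside the Control range. Control 3 was the highest library and Control 1 the lowest. Its log2 fold change was 0.05 (SE 0.26, edgeR adjusted p = 0.915), and 2 SE either side spans -0.47 to 0.56. Its sign turned with the scaling and with single libraries. Whether Mmp9 and Mmp2 differed in their response was not tested. Of 8 neutrophil markers in the tables, 1 had enough reads for the test, Csf3r at -0.86 (SE 0.23, edgeR adjusted p = 0.0186), and the 8 summed to 1.64 to 4.01 CPM in Control and 1.17 to 2.02 CPM in 1C-MIM.

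Levels of different genes were compared per kilobase of transcript. In Control muscle the mean levels in CPM per kilobase (± SD, n = 5) were, in order, 44.1 ± 3.27 for Timp2, 38.6 ± 3.48 for Timp3, 29.0 ± 5.09 for Mmp2, 23.0 ± 2.14 for Timp4, 7.98 ± 1.07 for Mmp14, 6.94 ± 0.420 for Mmp15, 4.15 ± 1.71 for Timp1, 2.14 ± 0.406 for Mmp19, 1.29 ± 0.571 for Mmp9 and 0.910 ± 0.370 for Mmp12. Ranges of neighbours in this order overlapped except between Timp3 and Mmp2 and between Timp4 and Mmp14. In 1C-MIM muscle the order was Timp3 (49.98 ± 2.93 CPM per kilobase), Timp2 (41.4 ± 5.96), Timp4 (26.2 ± 2.71), Mmp2 (18.0 ± 3.96), Mmp15 (6.60 ± 0.247), Mmp14 (5.16 ± 0.669), Mmp19 (1.34 ± 0.0978), Mmp9 (1.33 ± 0.226), Timp1 (0.599 ± 0.189) and Mmp12 (0.184 ± 0.0972). There the ranges of neighbours overlapped only between Timp3 and Timp2 and between Mmp19 and Mmp9. The level of Timp3 was 0.808 to 0.941 times that of Timp2 in the Control libraries and 1.09 to 1.39 times in the 1C-MIM libraries. Timp1 was at place 7 in Control, and at place 5 when the deposited TPM was summed over transcripts, which counts its shared reads once for each transcript.

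**Figure D3:**
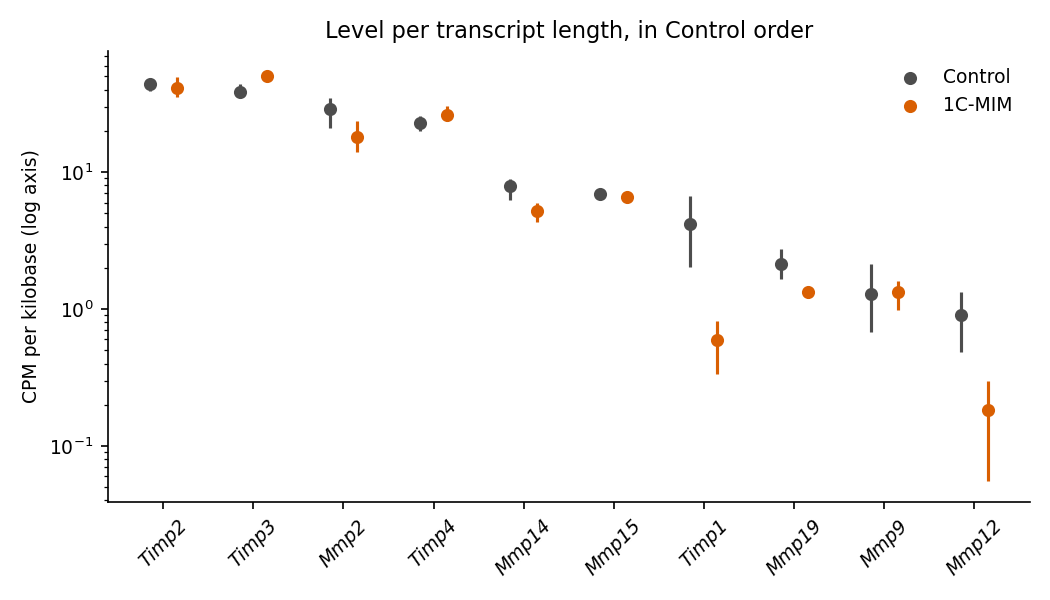
Mean CPM per kilobase (log axis) of each gene in Control (grey) and 1C-MIM (orange), with lines from the lowest to the highest of 5 libraries, in the order of the Control means. Timp2, Timp3, Mmp2 and Timp4 form the upper group, and the lines of Timp1 and Mmp12 do not overlap between the groups.

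Summed over genes, the 6 metalloproteinases were at 37.3 to 55.8 CPM per kilobase in Control and at 28.4 to 38.7 in 1C-MIM, where 1C-MIM 2 exceeded Control 2. The 4 inhibitors were at 100.4 to 117 CPM per kilobase in Control and at 109.7 to 129 in 1C-MIM, with wide overlap. As a percentage of the inhibitor sum, the metalloproteinase sum was 44.2, 37.2, 47.9, 42.5 and 46.8% in Control 1 to 5 and 24.5, 30.0, 25.9, 27.2 and 29.9% in 1C-MIM 1 to 5. Every Control percentage was above every 1C-MIM percentage. Mmp2 made up 56.4 to 62.3% of the metalloproteinase sum in Control and 49.2 to 60.9% in 1C-MIM. Timp1 made up 2.01 to 5.98% of the inhibitor sum in Control and 0.306 to 0.701% in 1C-MIM. These sums describe transcripts of genes picked with the contrast known and carry no test. They leave out the 6 other metalloproteinase genes that had enough reads for the test, of which 1 was lower and 5 did not pass.

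**Figure D4:**
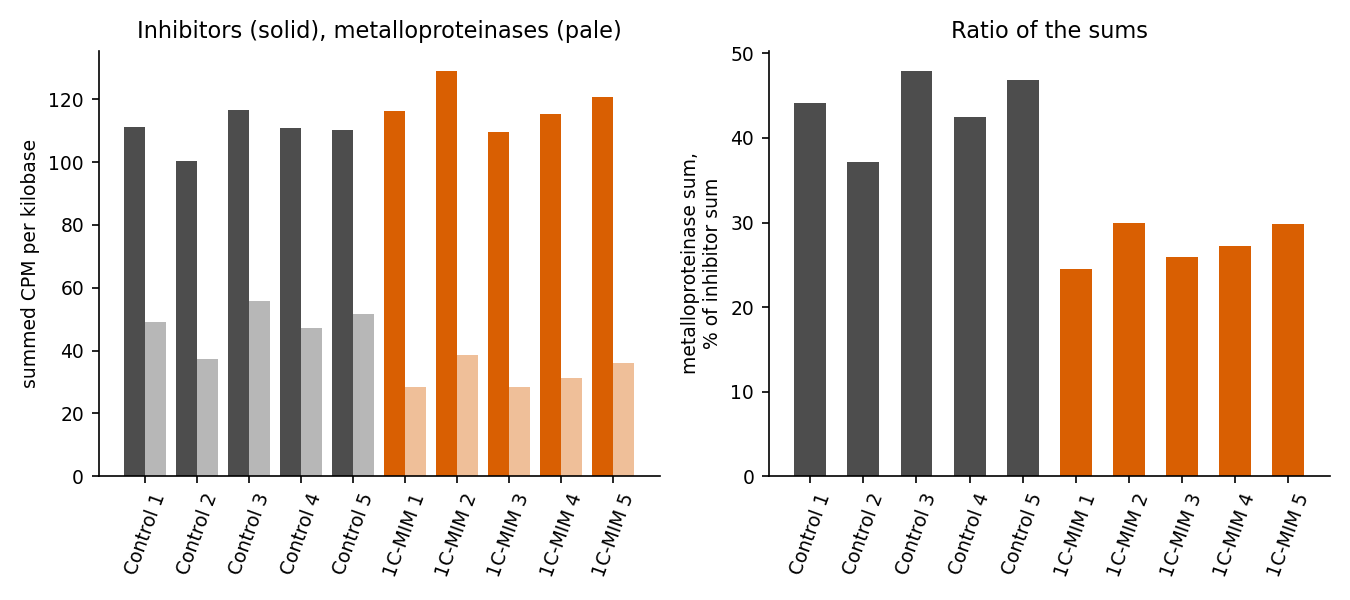
Left, summed CPM per kilobase of the 4 inhibitors (solid bars) and the 6 metalloproteinases (pale bars) in each library; right, the metalloproteinase sum as a percentage of the inhibitor sum. Control libraries (grey) lie at 37.2 to 47.9% and 1C-MIM libraries (orange) at 24.5 to 30.0%.

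Animals within a group also differed from each other, and these differences do not depend on the contrast between the groups. Each gene's log2 CPM was taken relative to its group mean, and the deviations of the 10 libraries were compared for all 45 pairs of the 10 genes, with two-sided exact permutation within groups and adjustment over the 45 pairs. Timp2 and Mmp2 deviated together, with r = 0.94 (exact permutation p = 0.000764, adjusted 0.0344) and rho = 0.93 (exact permutation p = 0.00194, adjusted 0.0750). This was the 1 pair with an adjusted p under 0.05 by Pearson's r, and by Spearman's rho the smallest adjusted p was 0.0750. For this pair r was 0.96 without the 2 libraries farthest from the median, 0.94 within Control and 0.98 within 1C-MIM. Mmp2 and Mmp14 had r = 0.88 (exact permutation p = 0.00368, adjusted 0.0687) and rho = 0.90 (exact permutation p = 0.00333, adjusted 0.0750), and Timp2 and Mmp14 had r = 0.83 (exact permutation p = 0.00458, adjusted 0.0687) and rho = 0.85 (exact permutation p = 0.00688, adjusted 0.103). Control 2 was low and 1C-MIM 2 high for all 3 genes.

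**Figure D5:**
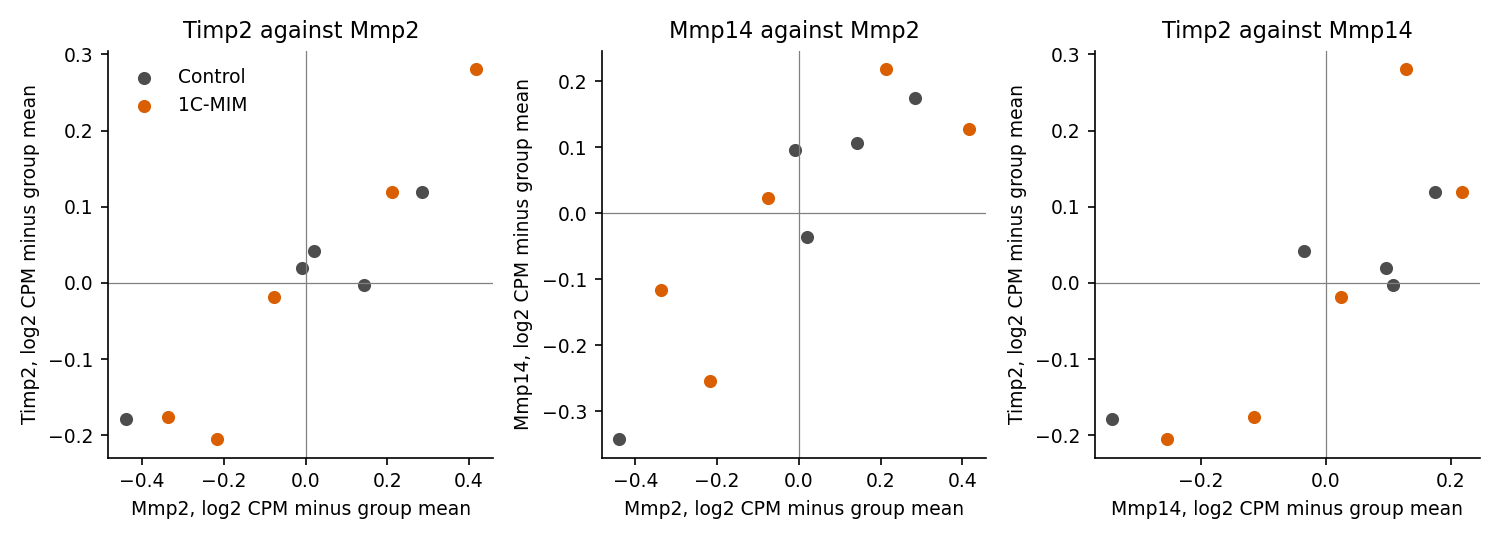
Deviation of log2 CPM from the group mean for Timp2 against Mmp2, Mmp14 against Mmp2 and Timp2 against Mmp14; each point is a library, grey for Control and orange for 1C-MIM. The points run from lower left to upper right in each panel (r = 0.94, 0.88 and 0.83 over 10 libraries).

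Among the 13879 other tested genes ranked by likeness to Mmp2, Timp2 was at rank 12 and Mmp14 at rank 53. Markers of fibro-adipogenic progenitors, which are connective tissue cells (Pdgfra, Ly6a, Cd34, Dpp4, Pi16, Cd248 and Thy1), were summed and compared in the same way, with adjustment over 50 relations between marker sums and genes. With Mmp2 this sum had r = 0.90 (exact permutation p = 0.00160, adjusted 0.0194) and rho = 0.93 (exact permutation p = 0.000347, adjusted 0.0174), and r was 0.88 without the 2 farthest libraries. With Mmp14 it had r = 0.91 (exact permutation p = 0.00257, adjusted 0.0214) and rho = 0.83 (exact permutation p = 0.00785, adjusted 0.0561), and r was 0.66 without the 2 farthest libraries. With Timp2 it had r = 0.85 (exact permutation p = 0.00146, adjusted 0.0194) and rho = 0.85 (exact permutation p = 0.00236, adjusted 0.0312), and r was 0.75 without them. Other sums were compared with the same genes. The sum of 5 tendon markers (Tnmd, Scx, Mkx, Fmod and Thbs4) had r = 0.86 (exact permutation p = 0.000972, adjusted 0.0194) and rho = 0.88 (exact permutation p = 0.00313, adjusted 0.0312) with Mmp2, and r = 0.86 (exact permutation p = 0.0148, adjusted 0.0740) and rho = 0.82 (exact permutation p = 0.0193, adjusted 0.0903) with Timp2. The sum of 17 genes of matrix proteins that metalloproteinases cut had r = 0.96 (exact permutation p = 0.000417, adjusted 0.0194) and rho = 0.92 (exact permutation p = 0.00208, adjusted 0.0312) with Timp2. With Mmp2 the matrix sum had r = 0.91 (exact permutation p = 0.00194, adjusted 0.0194) and rho = 0.87 (exact permutation p = 0.00556, adjusted 0.0463), and with Mmp14 it had r = 0.83 (exact permutation p = 0.00701, adjusted 0.0501) and rho = 0.90 (exact permutation p = 0.00257, adjusted 0.0312). The tendon sum had r = 0.67 (exact permutation p = 0.0345, adjusted 0.133) and rho = 0.78 (exact permutation p = 0.0199, adjusted 0.0903) with Mmp14. Without the 2 farthest libraries r was 0.78, 0.77 and 0.75 for the tendon sum with Mmp2, Timp2 and Mmp14. It was 0.94, 0.82 and 0.93 for the matrix sum with Timp2, Mmp2 and Mmp14. The sum of 5 endothelial markers had r = 0.11, 0.01 and -0.17 with Timp2, Mmp2 and Mmp14. The sum of the 8 macrophage markers had r = 0.84 (exact permutation p = 0.00806, adjusted 0.0503) and rho = 0.67 (exact permutation p = 0.0533, adjusted 0.205) with Mmp14. With Timp2 it had r = 0.70 (exact permutation p = 0.0131, adjusted 0.0725) and rho = 0.79 (exact permutation p = 0.0142, adjusted 0.0818). With Mmp2 it had r = 0.71 (exact permutation p = 0.0326, adjusted 0.133). Without the 2 farthest libraries r was 0.30, 0.34 and 0.40. Whether these sums differ in their relation to the genes was not tested. Between the groups the 7 fibro-adipogenic markers summed to 196 to 255 CPM in Control and 169.7 to 216 CPM in 1C-MIM. Of the 7, all with reads, 3 were lower and 4 did not pass: Thy1 fell by 0.69 (SE 0.11), Cd248 by 0.52 (SE 0.14) and Ly6a by 0.40 (SE 0.10), and Pdgfra was at 0.03 (SE 0.13, edgeR adjusted p = 0.892). The tendon markers summed to 179 to 265 CPM in Control and 93.5 to 295 CPM in 1C-MIM. The part of any of these cells in the difference of Mmp2 and Mmp14 between the groups was not tested.

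Timp1 deviated with Mmp19 at r = 0.85 (exact permutation p = 0.00986, adjusted 0.0760) and rho = 0.71 (exact permutation p = 0.0440, adjusted 0.330). Timp1 and Mmp12 had r = 0.76 (exact permutation p = 0.0101, adjusted 0.0760) and rho = 0.66 (exact permutation p = 0.0528, adjusted 0.339). Without Control 2 and 1C-MIM 3, the 2 libraries farthest from the median of Timp1, r was 0.69 and 0.39, so the relation with Mmp12 rests on those libraries. Mmp12 and Mmp19 had r = 0.71 (exact permutation p = 0.00653, adjusted 0.0734) and rho = 0.70 (exact permutation p = 0.0338, adjusted 0.320). With the macrophage sum Timp1 had r = 0.27 (exact permutation p = 0.517, adjusted 0.663) and rho = 0.09 (exact permutation p = 0.830, adjusted 0.886). Mmp12 had r = -0.05 (exact permutation p = 0.886, adjusted 0.923) and rho = -0.22 (exact permutation p = 0.554, adjusted 0.815) with that sum. Among animals of the same group no relation with these markers was detectable for either gene. The 1C-MIM libraries held 9 to 21 reads of Timp1 and 6 to 31 of Mmp12, and at such counts a relation could have been missed.

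The animal numbers in the deposited names begin with 2 (3 Control and 3 1C-MIM animals) or with 3 (2 and 2), and the labels name no batch. In these sets the log2 difference of 1C-MIM from Control was -2.70 and -2.45 for Timp1 and -2.10 and -2.52 for Mmp12. It was 0.37 and 0.39 for Timp3, -0.69 and -0.71 for Mmp2, -0.68 and -0.54 for Mmp14 and -0.70 and -0.59 for Mmp19. The 6 called genes had the same sign in both sets. For Timp1, Timp3, Mmp12, Mmp14 and Mmp19 the groups did not overlap, so any such split gives that sign. Among the 6, only Mmp2 could have differed in direction between the sets. Timp2 was at -0.12 and -0.07, Timp4 at 0.28 and 0.06, Mmp15 at -0.13 and 0.01 and Mmp9 at 0.25 and -0.01.

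Of 17 other metalloproteinase genes in the tables, 6 had enough reads for the test, of which 1 was lower and 5 did not pass (median -0.16). Mmp3, stromelysin-1, which activates other precursors, went from 1.90 ± 0.407 to 0.639 ± 0.182 CPM without overlap, and its log2 fold change was -1.56 (SE 0.22, edgeR adjusted p = 0.000713). Mmp28 was at 0.48 (SE 0.18, edgeR adjusted p = 0.0719) and Mmp23 at -0.32 (SE 0.16, edgeR adjusted p = 0.158). The collagenase genes Mmp8 and Mmp13 had 25 and 21 reads over all libraries, and 4 genes (Mmp1a, Mmp1b, Mmp20 and Mmp21) had none.

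Of 13 genes that activate or restrain metalloproteinases at the cell surface, 10 had enough reads for the test, of which 3 were lower and 7 did not pass (median -0.10). Lcn2, a lipocalin that binds Mmp9, fell by 1.42 (SE 0.25), and Plaur, the urokinase receptor, fell by 1.03 (SE 0.21). Serpine2, an inhibitor of urokinase and thrombin, was at -0.19 (SE 0.06, edgeR adjusted p = 0.0485). Among 17 ADAM and ADAMTS proteases, some of which TIMPs also block, 4 were lower and 13 did not pass (median -0.11). Adamts4, an aggrecanase, went from 0.899 ± 0.133 to 0.196 ± 0.0647 CPM, the leukocyte protease gene Adam8 fell by 0.95 (SE 0.15) and Adam19 by 0.42 (SE 0.10). Among 17 matrix proteins that metalloproteinases cut, 6 were lower and 11 did not pass (median -0.24). The collagen genes Col3a1, Col5a1 and Col6a1 were at -1.55 (SE 0.17), -0.72 (SE 0.12) and -0.52 (SE 0.10).

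Other cell type markers were counted the same way. Of 5 endothelial markers 3 were higher (Cdh5 0.37 (SE 0.09), Tek 0.38 (SE 0.12) and Kdr 0.51 (SE 0.16)), with sums of 138 to 199 CPM in Control and 201 to 230.4 CPM in 1C-MIM. Of 5 smooth muscle and pericyte markers 2 were higher (Rgs5 and Cspg4), of 5 Schwann cell markers 1 (Mbp) and of 5 myofibre markers 2 (Myh4 and Myh1). Of 3 tested satellite cell markers 1 was lower (Vcam1) and of 3 adipocyte markers 1 (Cfd), while all 5 tendon markers and the 1 tested neuronal marker did not pass. Within the groups the endothelial sum had r = 0.59 (exact permutation p = 0.153, adjusted 0.332) and rho = 0.59 (exact permutation p = 0.121, adjusted 0.328) with Timp3, and r was 0.21 without the 2 farthest libraries. The matrix sum had r = 0.71 (exact permutation p = 0.0228, adjusted 0.104) and rho = 0.45 (exact permutation p = 0.214, adjusted 0.445) with Timp3. Without the 2 farthest libraries its r was 0.14. The fibro-adipogenic, macrophage and tendon sums had r = 0.51, 0.51 and 0.52 with Timp3, and 0.61, 0.75 and 0.19 without those libraries. None of these relations of Timp3 had an adjusted p under 0.05. The part of these cells in the difference of Timp3 between the groups was not tested.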

How the data were processed

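Each of 10 libraries has a table whose columns, per the file headers, are a count, FPKM and TPM per RefSeq transcript (33984 transcripts). The deposited counts are whole and not normalized. The authors' FPKM served to recover transcript lengths and the authors' TPM an alternative order of levels. Trim Galore 0.6.7, Salmon 1.5.2, STAR, featureCounts, Subread 2.0.1 and the build GRCm39 are listed, without roles, per the submitters' processing notes; the sources used here do not give the strand setting. Other transcripts of a symbol, left out, held 45.3 to 47.4% of the counts. Transcripts of a symbol can share reads, as those of Timp1 and Mmp19 do, so this is not the share of reads lost.

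The genes, lists and tests were chosen with earlier results of these data known. Counts were filtered (filterByExpr), scaled by TMM and compared over 13880 genes by the robust quasi-likelihood F test of edgeR 4.0.16 (R 4.3.3). An SE is the log2 fold change divided by the root of F, and log2 CPM used a prior count of 2. Scripts were tested on simulated data. From other lists the 3 genes with the smallest p were named; Jun, Cd163, Pdgfra, Mmp8, Mmp13 and the cytokine genes were named after their values were seen. Of the 5 genes most like Timp1, 1 is not reported here. Alternatives used DESeq2 1.42.0, limma 3.58.1 and sva 3.50.0. The labels do not say which mice shared a cage, so p-values measure the spread between these libraries.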

Additional observations from a re-analysis of the deposited data

How the results depend on the processing

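Each of the 10 changes was recomputed under 26 alternatives. Timp1 (-2.96 to -2.45), Mmp12 (-2.53 to -1.82), Mmp14 (-0.70 to -0.56), Mmp19 (-0.76 to -0.54) and Timp3 (0.27 to 0.43) kept direction and call in all 26, and Timp2 and Mmp15 stayed negative and uncalled. Mmp2 lost its call in 3: with the replicate block (-0.70, edgeR adjusted p = 0.0555), with 1 surrogate variable (-0.70) and without Control 1 and Control 5 together (-0.65), which leaves 4 genes called lower. The sign of Mmp9 turned with library totals alone as scaling (-0.032), without Control 1 and Control 5 together (-0.13) and without Control 1, Control 2 or 1C-MIM 3 (leaving out single libraries, -0.11 to 0.31). Timp4 was called, making 2 genes higher, with quality weights in limma-voom (0.19), with 1 surrogate variable (0.28) and with the length trend removed (0.33); the cause was not tested. Without any single library 5 genes were lower and 1 higher.

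Over all genes, 606 were higher and 2896 lower with library totals alone, which shifted the median by -0.075, and 2166 were higher with quality weights. Without Control 1 and Control 5 together 832 were higher and 976 lower. Without single libraries 739 to 1558 were higher and 941 to 1885 lower; counts were more than 1.5 times smaller without Control 4 (902 higher), 1C-MIM 3 (843 and 1057) and 1C-MIM 4 (739 and 941). With the replicate block 1932 were higher and 1965 lower, and no other call among the 10 changed. Same-numbered libraries were not taken as pairs, since the labels name nothing that they share. Their deviations correlated over 0.1 in 3 of 5 pairs (r from -0.075 to 0.39). Of the libraries, 2 of 5 Control and 2 of 5 1C-MIM correlated best with their own number. These values do not settle whether the libraries are paired. Transcripts tested alone give no count of genes.

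The metalloproteinase sum as a percentage of the inhibitor sum was 43.7 ± 4.23% in Control and 27.5 ± 2.43% in 1C-MIM (SD, n = 5 each). In Control it was 73.1% without Timp2, 67.5% without Timp3, 55.3% without Timp4, 17.5% without Mmp2, 36.5% without Mmp14 and 37.4% without Mmp15. In 1C-MIM it was 42.5, 47.6, 35.3, 12.4, 23.1 and 21.9% in the same order, below Control each time. Because the genes were picked with this contrast known, that order is a description and not a test of the ratio. Low counts limit Timp1 and Mmp12 in 1C-MIM, with 6 to 31 reads per library.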

Other observations

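Among the tested genes whose deviations within the groups were most like those of Timp1 (mean log2 CPM of at least 2, 10 libraries) were Sparc, a matrix protein that binds collagen (r = 0.97), Arpc5, a subunit of the actin-nucleating Arp2/3 complex (0.95), Sec14l1 (0.94) and Serpina3n, a protease inhibitor of the acute phase response (0.93). Spearman's rho was 0.96, 0.92, 0.93 and 0.94 in the same order. They were picked for the highest values over all tested genes, so these values are a description. Without Control 2 and 1C-MIM 3, r was 0.92, 0.84, 0.88 and 0.81. With a minimum mean log2 CPM of 0, Sparc, Arpc5 and Sec14l1 stayed among the highest 5 and Serpina3n did not. Between the groups Serpina3n went from 20.9 to 8.07 CPM, whereas Sec14l1 did not pass the test (log2 fold change 0.14, SE 0.06, edgeR adjusted p = 0.102).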
